A study of Rattus norvegicus with 6 samples.

Results

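The miR-26 family of the rat liver, made up of rno-miR-26a-5p and rno-miR-26b-5p, was followed through small RNA libraries of 3 rats with nonalcoholic fatty liver disease (NAFLD) and 3 normal rats. A tag is a distinct read sequence, deposited with its read count. Tags were taken as miR-26a or miR-26b when their first 18 bases equalled those of the mature miRNA. In all, 466 of the 1528721 different tags met this rule, 312 of miR-26a and 154 of miR-26b, and 94 of them were read in all 6 libraries. Taken 1 by 1, the libraries held 182 to 282 of these tags each. All rats were Wistar, and according to the study's methods male. The NAFLD rats went without food for 48 h and then ate an 80% starch diet for 7 days. The normal rats were fed standard chow, in which 35% starch was only a part of the carbohydrate. The livers of the NAFLD group were picked among those with higher hepatic triglycerides, so they do not stand for every rat on that diet, whereas the normal livers were picked at random. The age is 4 months in the sample labels and 28 weeks in the study's methods.

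A microRNA is a short RNA cut from a hairpin precursor, which guides Argonaute proteins to messenger RNAs that pair with its seed, bases 2 to 8. The miR-26 miRNAs are made by many tissues and are known as brakes on cell growth and on the cell cycle. In liver, miR-26a is known from work on liver cancer and on glucose and lipid metabolism. After processing, enzymes can add single A or U bases to the 3′ end of a mature miRNA. An added base can be told from a longer cut only where it differs from the precursor.

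The mature sequences and hairpins below are from RefSeq (GRCr8, plus strand) and are shown because the matching rule and the reading of every 3′ end depend on them. In the mature sequences the seed is in capitals. The 2 members share it, and no other rat mature miRNA of the reference table carries it.
miR-26a-5p: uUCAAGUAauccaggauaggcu
miR-26b-5p: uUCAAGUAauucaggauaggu
The 18-base starts differ only by C11T, read from miR-26a to miR-26b with positions counted from 1 at the 5′ end, and the members differ again after position 18. The mature miR-26a-5p has 22 bases and lies at chr8:127633063-127633084, inside the span of the protein-coding gene Ctdspl. The mature miR-26b-5p has 21 bases and lies at chr9:83425723-83425743, inside the span of Ctdsp1. Both host genes encode small phosphatases of the RNA polymerase II tail. In the hairpins the mature sequence is in capitals.
Mir26a: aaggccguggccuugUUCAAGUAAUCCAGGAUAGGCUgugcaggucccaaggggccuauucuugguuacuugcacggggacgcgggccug
Mir26b: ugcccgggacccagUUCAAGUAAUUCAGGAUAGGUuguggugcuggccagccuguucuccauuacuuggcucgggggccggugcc
The base that follows the mature sequence is G in Mir26a and U in Mir26b, the only precursor of each in the reference table. An A or a T after the annotated end of miR-26a is therefore not in its precursor, while the first T after miR-26b is.

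Each library held 11601058 to 11880695 clean reads. Of these, 75.7% to 79.2% in the NAFLD and 85.7% to 91.3% in the normal libraries started like a rat mature miRNA of the reference table. The NAFLD libraries also held more different tags, 413022 to 467746 against 221610 to 264974. The cause of these gaps between the groups was not tested. By substitution rate, the libraries fell into sets that cut across the groups. At read position 4, the median share of reads with a substitution over the 50 most abundant miRNAs was 3.84% to 4.27% in NAFLD replicates 2 and 3 together with normal replicate 2. It was 0.0288% to 0.0639% in NAFLD replicate 1 and normal replicates 1 and 3. These sets are called the high and the low substitution set, and they were defined from the reads, not from the labels. The tissue label was met, with miR-122-5p, the defining miRNA of hepatocytes, at 445063 to 595583 TPM, the reads per 1000000 clean reads. The 4 hepatocyte markers together were at 474195 to 481459 TPM in the NAFLD and 582999 to 621798 TPM in the normal libraries, and their part in the values of miR-26 was not tested. This gap is that of miR-122-5p, since the levels of each of the 3 other markers, miR-192-5p, miR-194-5p and miR-148a-3p, overlapped between the groups. The summed markers of other liver cells were far lower and overlapped between the groups: 14.7 to 48.4 TPM for endothelium, 31.2 to 78.0 TPM for blood cells, 342 to 665 TPM for stellate and smooth muscle cells and 0.765 to 2.86 TPM for duct epithelium, where only miR-200c-3p of 4 listed markers was in the reference table. In whole liver, fewer cells of a type and less RNA per cell cannot be told apart.

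The levels of miR-26a in the NAFLD and normal livers overlapped. MiR-26a was at 2136, 892 and 1100 TPM in NAFLD replicates 1, 2 and 3 and at 2017, 890 and 1736 TPM in normal replicates 1, 2 and 3. The 3 lowest libraries were those of the high substitution set. The means were 1376 ± 666 TPM and 1548 ± 587 TPM (SD, n = 3 each). MiR-26b was at 1562, 674 and 789 TPM in the NAFLD livers against 1503, 529 and 1373 TPM in the normal livers. It showed the same order of sets, with means of 1008 ± 483 TPM and 1135 ± 529 TPM (SD, n = 3 each). By mean TPM, miR-26a ranked 14 and miR-26b ranked 16 among the 167 miRNAs tested.

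The question of the study, which miRNAs differ between NAFLD and normal liver, was put to both members in a fit over all 167 miRNAs by edgeR's quasi-likelihood test. The log2 fold change of NAFLD over normal was -0.17 for miR-26a (standard error 0.40, adjusted p = 0.986 by edgeR) and -0.17 for miR-26b (standard error 0.44, adjusted p = 0.986 by edgeR). Neither of the 2 members passed an adjusted p of 0.05, against 0.599% of all miRNAs tested, or an unadjusted p of 0.05, against 1.80%. In TPM the groups overlapped for both members, whereas 2.99% of all miRNAs were higher and 1.20% lower in all NAFLD livers without overlap. The median log2 fold change of all 167 miRNAs was 0.02. The miRNA that passed, named here after its values were seen, was miR-122-5p, with a log2 fold change of -0.35 (standard error 0.04, adjusted p = 0.000532 by edgeR). The direction for miR-26 depended on the counting and on single libraries, since it was positive for both members without NAFLD replicate 2 or without normal replicate 1. The median of all miRNAs also rose in these fits, to 0.15 and 0.16. Relative to it, miR-26a and miR-26b were at -0.09 and -0.10 without NAFLD replicate 2, and at -0.09 and -0.07 without normal replicate 1. Scaled to the reads of all miRNAs in place of clean reads, which moved the median of all miRNAs to 0.20, the log2 fold changes were 0.02 for miR-26a and 0.03 for miR-26b. With the substitution set as a covariate they were 0.17 (standard error 0.16, adjusted p = 0.701 by edgeR) and 0.29 (standard error 0.17, adjusted p = 0.482 by edgeR), where the median of all miRNAs was 0.24. Relative to that median the difference was -0.06 for miR-26a and 0.06 for miR-26b. Within the low set, NAFLD minus normal was 259 TPM for miR-26a and 124 TPM for miR-26b, and within the high set it was 106 and 203 TPM. These differences rest on 1 library of one group and allow no test.

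In the high set many miR-26 reads carried substitutions in the first 18 bases, which the matching rule does not accept. The most frequent was A8C, at the last base of the seed. In miR-26a, NAFLD replicates 2 and 3 had 2342 and 2823 such reads and normal replicate 2 had 2356. NAFLD replicate 1 had 4, and normal replicates 1 and 3 had 1 and 2. As a share of the miR-26a reads with at most 1 substitution this was 13.6% to 13.9% in the high set. In miR-26b, A8C was on 1483 and 1795 reads of NAFLD replicates 2 and 3, on 1377 reads of normal replicate 2 and on no read of the low set. The substitutions that followed in miR-26a were A5C, with 6.25% to 6.81% of reads in the high set, A16C, with 5.62% to 6.11%, and A4G, with 3.46% to 3.95%. The same substitutions led in miR-26b, with 5.96% to 7.02%, 5.79% to 6.34% and 3.56% to 4.04%. In each member the high-set libraries of both groups lay close together at these positions, while in the low set the highest value at any position was 0.279% for miR-26b and 0.228% for miR-26a.

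**Figure D1:**
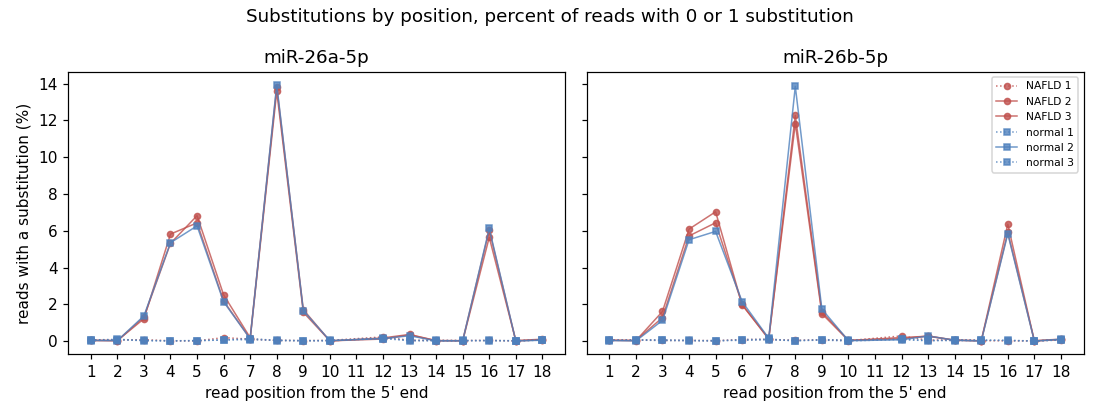
Share of reads with a substitution at each of the first 18 read positions (x, counted from the 5′ end) as a percent of the reads of the member with 0 or 1 substitution (y), 1 line per library, with solid lines for the high and dotted lines for the low substitution set; position 11, where the members differ, has no value. Peaks at positions 4, 5, 8 and 16 appear in the 3 high-set libraries of both members and reach 13.9% at position 8, whereas the 3 other libraries stay near 0.

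When reads with up to 3 substitutions were assigned to the nearest miRNA, a count chosen after the data were seen, the libraries drew together. MiR-26a was then at 2160, 1723 and 2086 TPM in the NAFLD livers against 2034, 1690 and 1750 TPM in the normal livers. MiR-26b was at 1579, 1258 and 1453 TPM in the NAFLD livers against 1514, 991 and 1385 TPM in the normal livers. The groups still overlapped for both members, and normal replicate 2 was the lowest library for each. Of these reads, 51.8% to 52.7% of miR-26a and 53.3% to 54.3% of miR-26b had an exact start in the high set, against 98.9% to 99.2% of each in the low set. Among the 41 miRNAs with a mean of at least 100 TPM by this count, the share with an exact start in the high set was at rank 9 from the lowest for miR-26a and rank 10 for miR-26b, and its median was 63.5%. The log2 fold change was 0.13 for miR-26a (standard error 0.17, adjusted p = 0.871 by edgeR) and 0.14 for miR-26b (standard error 0.19, adjusted p = 0.871 by edgeR). The median of all miRNAs was 0.20 in this fit, so relative to it the difference was -0.07 for miR-26a and -0.05 for miR-26b.

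**Figure D2:**
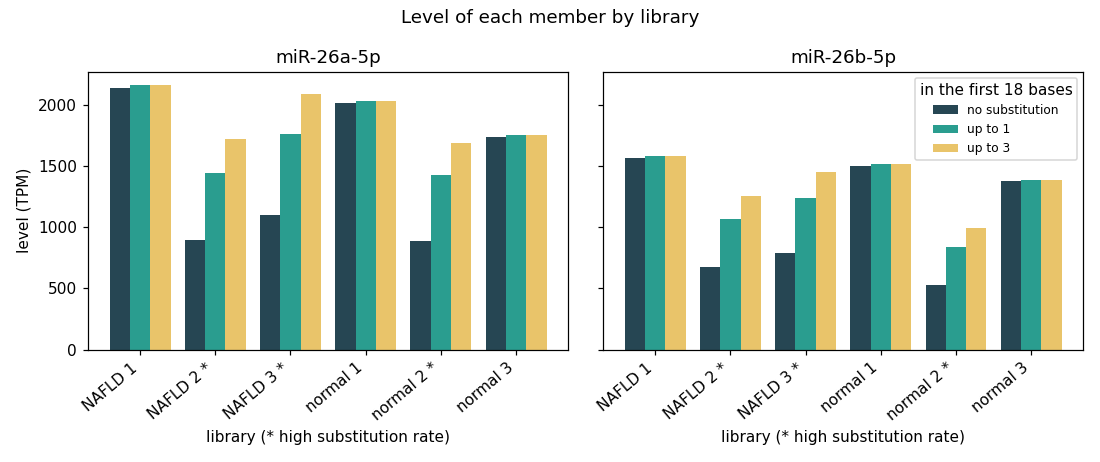
Level of miR-26a-5p and miR-26b-5p in TPM (y) in each library (x; an asterisk marks the high substitution set), with bars for reads with no, up to 1 and up to 3 substitutions in the first 18 bases. In NAFLD replicate 2 the level of miR-26a goes from 892 to 1723 TPM with up to 3 substitutions, and in NAFLD replicate 1 from 2136 to 2160 TPM.

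MiR-26a was read more often than miR-26b in every library. The ratio of miR-26a to miR-26b reads, which does not depend on the depth of a library, was 1.37, 1.32 and 1.39 in NAFLD replicates 1, 2 and 3 and 1.34, 1.68 and 1.26 in normal replicates 1, 2 and 3. Normal replicate 2 stood above the other libraries, and the groups overlapped. The log2 ratio was 0.45 ± 0.04 in the NAFLD livers and 0.51 ± 0.22 in the normal livers (SD, n = 3 each; two-sided exact permutation test, p = 0.9), where 3 libraries against 3 cannot give a p below 0.1. The difference of -0.06 turned to 0.06 without normal replicate 2 (exact permutation p = 0.3) and was 0.07 within the low and -0.31 within the high set. With up to 3 substitutions the ratios were 1.37, 1.37 and 1.44 against 1.34, 1.71 and 1.26, so the high value of normal replicate 2 stayed with that count.

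Some reads had the start of one member but the base of the other at the first place after position 18 where the members differ. In miR-26b these were 162, 60 and 62 reads of the NAFLD and 80, 40 and 63 reads of the normal libraries. Later bases were not compared. A miR-26a read with C11T is counted as miR-26b by the rule and would look like this. A read of the member itself with a changed or added base at that place would do so too, and these were not told apart. The counted reads made up 0.894%, 0.757% and 0.665% of the miR-26b reads in the NAFLD livers against 0.449%, 0.637% and 0.386% in the normal livers. Reads with the start of miR-26a and the base of miR-26b made up 0.143% to 0.327% of the miR-26a reads in the NAFLD livers. In the normal livers they were 0.123% to 0.272%, which overlapped. The groups did not overlap for the miR-26b reads, a measure singled out after its values were seen. Its share over other miRNAs was not computed. Removing reads with the base of the other member left the difference in log2 ratio at -0.06.

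The passenger arms of both hairpins were close to absent. With an exact start, miR-26a-3p had 1, 0 and 0 reads in the NAFLD livers against 0, 0 and 1 in the normal livers, and miR-26b-3p had 2, 0 and 1 against 3, 1 and 0. A count of 0 allows up to 3 reads, or 0.253 to 0.259 TPM at these depths, which covers counting error only. Starts 1 base downstream were also rare, with 11 to 36 reads of miR-26a and 8 to 17 reads of miR-26b per library. As a percent of the unshifted reads, those of miR-26a were at 0.145%, 0.143% and 0.200% in the NAFLD livers. In the normal livers they were at 0.0920%, 0.104% and 0.111%, without overlap (exact permutation p = 0.1). This measure was singled out after its values were seen. Its share over other miRNAs was not computed, so how common such a gap is among them is not known. On miR-26b the groups overlapped. Starts 1 or 2 bases upstream were not read in any library. The 5′ end, and with it the seed, was thus the same in nearly all reads of both members that carried no substitution.

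The 3′ ends differed far more, and the members differed from each other in the kind of end. The tags below are the 6 most abundant of each member by mean TPM, with every base after the annotated end in capitals, and they include the annotated sequence with 1 added A or T.
miR-26a, annotated: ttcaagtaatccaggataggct
miR-26a, 2 added T: ttcaagtaatccaggataggctTT
miR-26a, added A then T: ttcaagtaatccaggataggctAT
miR-26a, 3 added T: ttcaagtaatccaggataggctTTT
miR-26a, 1 added T: ttcaagtaatccaggataggctT
miR-26a, 1 added A: ttcaagtaatccaggataggctA
miR-26b, 1 added T: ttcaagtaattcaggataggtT
miR-26b, 2 added T: ttcaagtaattcaggataggtTT
miR-26b, annotated: ttcaagtaattcaggataggt
miR-26b, added T then A: ttcaagtaattcaggataggtTA
miR-26b, 3 added T: ttcaagtaattcaggataggtTTT
miR-26b, 1 added A: ttcaagtaattcaggataggtA
Their mean levels over the 6 libraries ranged from 65.2 to 416 TPM in miR-26a and from 12.2 to 631 TPM in miR-26b. The levels of each of these tags overlapped between the groups.

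The reads of miR-26a that ended exactly as annotated were 27.1%, 27.5% and 26.2% in the NAFLD livers against 32.1%, 26.4% and 28.8% in the normal livers, which overlapped. The means were 26.9% ± 0.692 and 29.1% ± 2.85 (SD, n = 3 each; two-sided exact permutation test, p = 0.3), and normal replicate 1 was the highest library. The difference of -2.14 points was -0.647 without normal replicate 1 and -3.49 without normal replicate 2. Of 34 abundant miRNAs, 5.88% had a share of the annotated end that was higher and 8.82% one that was lower in all NAFLD livers without overlap, and miR-26a and miR-26b were not among them. Reads with any base after the annotated end were 65.8%, 66.3% and 67.5% in the NAFLD livers against 61.5%, 68.6% and 64.2% in the normal livers. Nearly all of these ends were made only of A and T, at 64.4%, 65.0% and 66.2% against 60.4%, 67.3% and 62.8% of the miR-26a reads. Reads that followed the precursor by 1 base, with an added G, were at most 0.142% in any library. The most frequent miR-26a end beyond the annotated one was 2 added T, with 25.7%, 25.2% and 25.5% in the NAFLD livers against 24.6%, 26.1% and 27.4% in the normal livers. An A followed by a T came next, with 12.5%, 13.0% and 13.9% against 11.3%, 13.6% and 11.8%. Among miRNAs with a mean of at least 100 TPM whose precursor does not supply the first added base, the mean share of miR-26a was the highest of 20 for 2 added T, where the median was 0.314%, and the highest of 30 for A then T, where the median was 0.177%. It ranked 2 of 30 for 2 added A, with 2.12% against a median of 0.200%.

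Of the annotated end and the single added A and T of each member, the single added A of miR-26a was the only one in which the groups did not overlap as a share of all reads of the member. It was carried by 4.41%, 4.37% and 3.87% of the miR-26a reads in NAFLD replicates 1, 2 and 3 and by 4.52%, 4.69% and 4.75% in normal replicates 1, 2 and 3. The means were 4.22% ± 0.303 and 4.65% ± 0.114 (SD, n = 3 each), a difference of -0.432 percentage points (exact two-sided permutation p = 0.1, the lowest that this design allows; 0.7 after Benjamini-Hochberg adjustment over the 7 exact tests of the ratio and the ends). The value for NAFLD replicate 1 rests on 1094 of 24782 reads, and its 95% Wilson interval of 4.17% to 4.68% holds the value of normal replicate 1. The difference was -0.221 points within the low and -0.563 points within the high set, and fell to -0.258 points without NAFLD replicate 3 (exact permutation p = 0.2). The separation depended on the denominator: as a share of the annotated sequence and its single additions, the difference was -0.266 points and the groups overlapped (exact permutation p = 0.7). With only A added in any number, the miR-26a shares were 6.58%, 6.70% and 6.51% against 6.46%, 6.96% and 6.83%, which overlapped (exact permutation p = 0.4). On miR-26b that count was 1.56%, 1.55% and 1.45% against 1.87%, 1.80% and 1.98%, without overlap (exact permutation p = 0.1). It was singled out after its values were seen, and its share over other miRNAs was not computed. Of 30 abundant miRNAs, 26.7% had a share of 1 added A that was lower in all NAFLD libraries without overlap, and 0 had one that was higher. With 4.44% over all libraries, miR-26a ranked 14 of the 30 for this end, near the median of 4.24%. A single added T was carried by 7.47%, 7.69% and 6.41% of the miR-26a reads in the NAFLD livers against 9.33%, 7.59% and 6.64% in the normal livers. These overlapped, as against 10% of 20 abundant miRNAs that were lower without overlap and 0 that were higher (means 7.19% ± 0.683 and 7.85% ± 1.37, SD, n = 3 each; exact permutation p = 0.5), and the difference of -0.666 points became 0.0742 points without normal replicate 1. In every library a single added A was less frequent on miR-26a than A then T, and a single added T less frequent than 2 added T.

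MiR-26b carried another set of ends. Its most frequent form had 1 added T, the base that its precursor supplies, at 60.6%, 60.0% and 55.4% of the reads in the NAFLD livers against 58.2%, 57.1% and 59.8% in the normal livers. The means were 58.6% ± 2.82 and 58.3% ± 1.34 (SD, n = 3 each; two-sided exact permutation test, p = 0.8). This T cannot be told from a cut 1 base further on. The annotated end made up 6.01%, 5.75% and 6.17% against 6.23%, 4.57% and 6.14% (exact permutation p = 0.9). Normal replicate 2 had the lowest share. An end of 2 added T, of which the precursor supplies the first, made up 23.3%, 23.9% and 26.7% in the NAFLD livers against 25.3%, 26.1% and 23.1% in the normal livers. A T followed by an A made up 3.13%, 3.58% and 3.43% against 3.55%, 4.59% and 4.00%.

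A single A after the annotated end of miR-26b, which the precursor does not supply, was less frequent than in miR-26a in every library. It was carried by 1.09%, 1.25% and 0.955% of the miR-26b reads in the NAFLD livers against 1.18%, 1.12% and 1.23% in the normal livers. The groups overlapped (means 1.10% ± 0.147 and 1.17% ± 0.0555, SD, n = 3 each; two-sided exact permutation test, p = 0.5), but with 1 substitution allowed in the first 18 bases the difference went from -0.0765 to -0.115 points (exact permutation p = 0.1). MiR-26b ranked 25 of 30 for this end. An end of 2 added A, singled out after its values were seen, was lower in all NAFLD libraries, with 0.475%, 0.290% and 0.472% against 0.685%, 0.669% and 0.742% (exact permutation p = 0.1). It rests on 23 to 122 reads per library, and 20% of the 30 abundant miRNAs were lower and 3.33% higher without overlap for that end. On miR-26a the same end lay the other way, with 2.07%, 2.22% and 2.49% in the NAFLD livers against 1.88%, 2.08% and 2.01% in the normal livers, which overlapped (exact permutation p = 0.2).

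**Figure D3:**
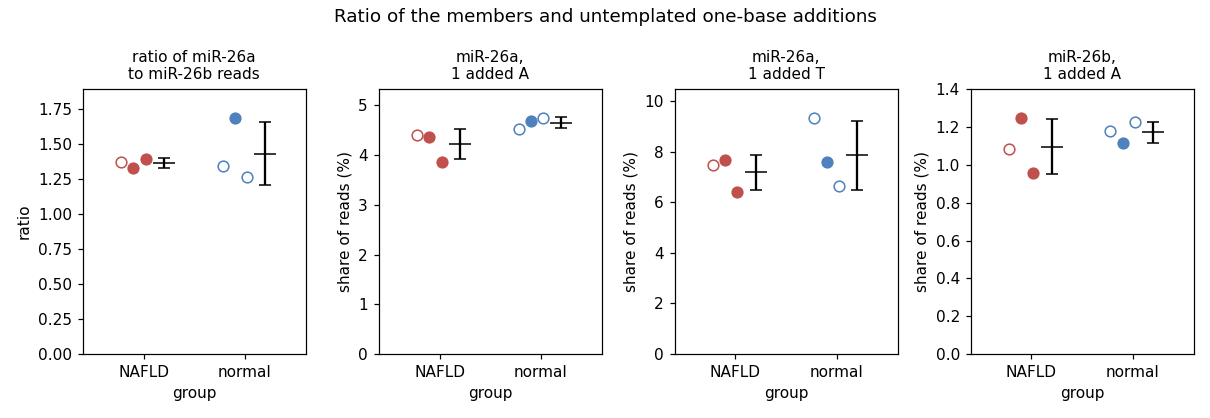
Ratio of miR-26a to miR-26b reads and percent of the reads of a member with 1 untemplated added base (y) in the NAFLD and normal groups (x), with 1 point per library, filled for the high and open for the low substitution set, and bars for mean ± SD (n = 3). The groups are apart only for the added A on miR-26a, at 3.87% to 4.41% against 4.52% to 4.75%.

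**Figure D4:**
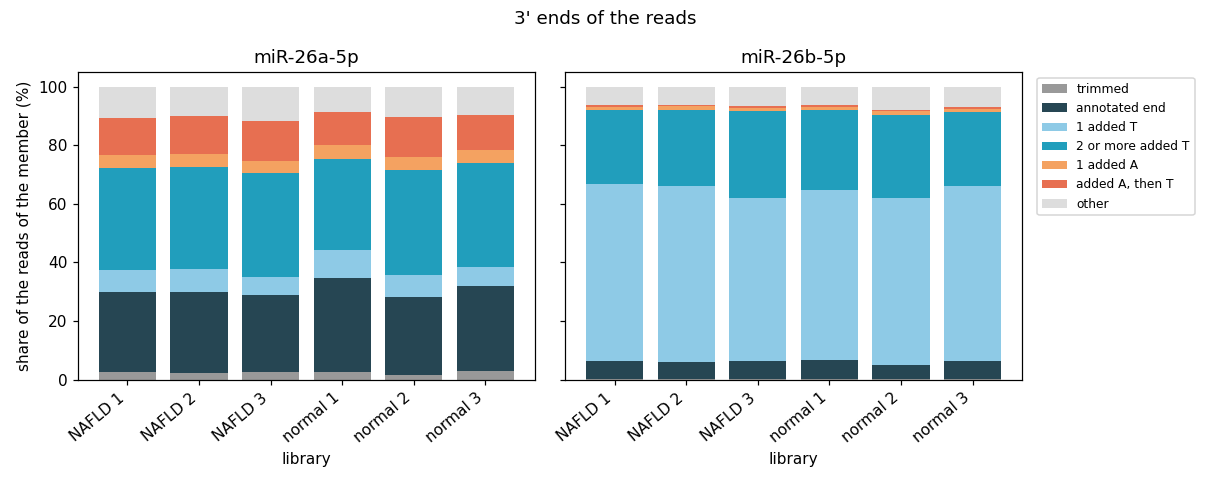
Composition of the 3′ ends as a percent of the reads of each member (y) in each library (x), stacked from trimmed forms to other ends. In miR-26a, 2 or more added T took 31.3% to 35.7% of the reads and the annotated end 26.2% to 32.1%, whereas in miR-26b 1 added T took 55.4% to 60.6%.

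The reads of miR-26a were longer than those of miR-26b. The mean read length was 23.4 ± 0.0387 nt in the NAFLD and 23.3 ± 0.119 nt in the normal libraries for miR-26a, and 22.3 ± 0.0381 and 22.3 ± 0.0394 nt for miR-26b (SD, n = 3 each). Reads of 24 nt were the largest class of miR-26a, with 39.0% to 43.4% of its reads, and reads of 22 nt were the largest class of miR-26b, with 56.7% to 62.1%. Forms trimmed from the annotated end were 1.71% to 3.02% of miR-26a and 0.271% to 0.387% of miR-26b.

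The miRNAs of at least 100 TPM were compared with each member by log2(TPM + 1) over the 6 libraries. Outside the family, miR-26a was followed most closely by miR-143-3p (Pearson's r = 0.989), miR-191a-5p (0.980) and miR-30a-5p (0.979). The r with miR-26b was 0.983, rank 2 of 36. For miR-26b the closest were miR-29c-3p (0.995), miR-29a-3p (0.994) and miR-191a-5p (0.985), and miR-26a was at rank 5 of 36. The 6 points share the substitution sets, so these values describe the libraries. With up to 3 substitutions the r between miR-26a and miR-26b was 0.815, rank 5 of 40 for miR-26a and rank 11 of 40 for miR-26b. MiR-16-5p (0.970), miR-191a-5p (0.925) and miR-143-3p (0.838) were then nearest to miR-26a, and miR-152-3p (0.975), miR-29c-3p (0.966) and miR-3559-5p (0.964) to miR-26b.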

How the data were processed

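The 18–30 nt RNA of each liver was gel-purified and sequenced by the authors, who removed low-quality reads, primer contaminants, poly A reads and inserts under 18 nt. They deposited the count of reads per tag, not normalized. The submitters' notes name rn5. Counts were summed over tags per mature rat miRNA of RefSeq (675 different 18-base starts, 365 with reads; identical starts merged), and TPM is the count per 1000000 clean reads. edgeR 4.0.16 in R 4.3.3 (glmQLFit, glmQLFTest, filterByExpr, library size of total clean reads) was fitted to 167 miRNAs with Benjamini-Hochberg adjustment, and was tested on simulated data. Alternatives used DESeq2 1.42.0, limma 3.58.1, other matching rules and libraries left out. Shares were compared by exact permutation with Python 3.11.15. Wilson intervals (95%) leave out every error but that of counting. They can be too narrow even for that, because PCR copies of 1 molecule are counted apart. Replicates are separate rats.

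Named items were both members, their passenger arms, and the 6 most abundant tags of each with the forms carrying 1 added A or T. The 3 miRNAs outside the family closest in pattern to each member were named too. The members and lists were chosen with earlier results of these data known. Of a list of 10 other abundant liver miRNAs, 9 were in the reference table and 0 passed an adjusted p of 0.05 in edgeR, with a median log2 fold change of -0.09. Of 4 hepatocyte markers 1, miR-122-5p, passed, and 0 passed of the markers of endothelium (2 of 2 in the table), blood (5 of 6), stellate or smooth muscle cells (5 of 5) and duct epithelium (1 of 4).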

Additional observations from a re-analysis of the deposited data

How the results depend on the processing

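Neither member passed an adjusted p of 0.05 in any alternative, those with up to 3 substitutions being chosen after the data were seen. The log2 fold change turned positive for both with the reads of all miRNAs as library size (miR-26a 0.0229, miR-26b 0.0252), with 1 substitution allowed (0.0425 and 0.0569), with up to 3 (0.13 and 0.14), with the substitution set as a covariate (0.17 and 0.29) and with both of the latter (0.18 and 0.29). Leaving out 1 library gave -0.64 to 0.0677 for miR-26a and -0.63 to 0.0847 for miR-26b, lowest for both without NAFLD replicate 1 and positive for both without NAFLD replicate 2 (0.0641 and 0.0508) or normal replicate 1. The cause of these turns was not tested. Relative to the median of all miRNAs, miR-26a stayed negative in each of the fits that turned positive. MiR-26b did so too, except with the substitution set as a covariate, at 0.06, and with that and up to 3 substitutions, at 0.02. All of these values were smaller than the standard error of the log2 fold change in their fit. The number of miRNAs past the threshold, 1 in the edgeR fit by clean reads, was 0 with TMM factors, with the reads of all miRNAs as library size, with DESeq2 on total clean reads and with up to 3 substitutions, where 12, 6, 2 and 23 had an unadjusted p under 0.05. It was 1 to 2 with 1 library left out, and 2 without NAFLD replicate 1. Fitted with a replicate block, the log2 fold changes were -0.19 and -0.13. Whether the numbers pair the libraries could not be settled. Deviations of same-numbered libraries correlated at 0.15, 0.34 and -0.54, and not every library correlated best with its own number. The substitution sets enter these correlations and could mask a pairing. The difference in log2 ratio turned to 0.0697 within the low substitution set, and ranged from -0.14 to 0.0636 with 1 library left out. The share of the annotated end turned to 0.486 points within the high set for miR-26a, which ranged from -3.49 to -0.647 with 1 library left out, and to -0.170 within the low set for miR-26b, which ranged from -0.205 (without normal replicate 2) to 0.624 with 1 library left out. One added T ranged from -1.27 to 0.0742 points on miR-26a and from -0.675 to 1.91 on miR-26b with 1 library left out, where it turned negative without NAFLD replicate 1, NAFLD replicate 2 or normal replicate 2. It was -0.358 on miR-26b with the annotated sequence and its single additions as denominator. The difference in 1 added A kept its sign in all 11 alternatives on either member, but not its size. With 1 library left out it ranged from -0.530 to -0.258 points on miR-26a and from -0.152 to -0.00565 on miR-26b, smallest on both without NAFLD replicate 3, and largest on miR-26b without NAFLD replicate 2. With the annotated sequence and its single additions as denominator it was -0.266 on miR-26a (exact permutation p = 0.7, so the groups overlapped) and -0.134 on miR-26b. With 1 substitution allowed, the difference in 1 added A was -0.475 and -0.115 (exact permutation p = 0.1 for each). The depth of 6275 to 24782 reads per member and library limits the rarer ends, and for 1 added A on miR-26a the counting intervals of single libraries overlap between the groups.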
